A study of Mus musculus with 5 samples.

Results

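The 49 genes described here encode the secreted Wnt ligands, their receptors and co-receptors, and the proteins that enhance, block or report the signal. They were taken as a fixed list of gene names, and all 49 had a row of their own on the array, among 19938 genes tested. The list holds 19 Wnt ligands, 10 Frizzled receptors, the co-receptors Lrp5 and Lrp6, the R-spondins Rspo2 and Rspo3, 9 secreted antagonists, and 7 genes of beta-catenin, its partner Lef1 and feedback targets. Signals were measured in total RNA of cartilage from the mandibular condyle, which forms the jaw side of the temporomandibular joint, of 129/Sv mice. The groups were Ddr1 knockout (DDR-1-KO, n = 2, knockout 2 and knockout 5) and wild type (n = 3, wild type 3, 4 and 6), each array from a mouse of its own and with no treatment named. Ddr1 is a receptor tyrosine kinase that collagen activates, and the comparison asks which transcripts differ in this cartilage without it. The labels do not give the age or sex of the mice or how the allele was made, and nothing in them limits the loss of Ddr1 to cartilage.

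Wnt proteins are lipid-modified ligands that bring a Frizzled receptor together with Lrp5 or Lrp6. This stops the destruction complex, built on Axin, from degrading beta-catenin, which then enters the nucleus and switches on targets with Tcf and Lef factors. Other Wnt signals run through Frizzled and Dishevelled without beta-catenin and orient cells. In joints the pathway helps to decide between articular cartilage and bone-forming fates, and both too much and too little of it has been linked to cartilage damage in mice.

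All values are log2 RMA signals, the log2 scale on which the authors deposited 1 value for each transcript and array, and each change is knockout minus wild type on that scale. The array type is the mouse gene 1.0 ST array, with probes along the whole transcript. A probe set's signal also depends on its probes, so levels are compared between arrays and not between genes, and no detection call was used. Array medians over all rows lay between 4.97 and 5.03. Over the genes tested the knockout medians were lower on average. Centring the arrays there moved the change of Fzd4, equal on all arrays, from 0 to 0.072. The deposited table holds many identical values: in 44 of the 49 members at least 2 arrays had exactly the same value, and the 3 wild-type values were identical in 17 members. Wild type 4 and wild type 6 had the same value in 31 of the 49 members, and in 61.8% of all genes tested. Standard errors of such genes rest mainly on the knockout arrays and on limma's pooled spread. The only members with 5 different values were Fzd1, Fzd2, Fzd8, Fzd10 and Axin2. The array names carry 2 dates: knockout 2 and wild type 3 share the first, and knockout 5 and wild types 4 and 6 the second.

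Ddr1 itself was at 5.96 and 5.80 in knockout 2 and 5 and at 6.02 on each wild-type array, a change of -0.14 (SE 0.058, limma's adjusted p = 0.377), and where its probes lie relative to the deleted part is not given in the sources used here, so its signal does not check the labels. The chondrocyte marker Col2a1, the main cartilage collagen, was at 7.07 and 6.96 in the knockout mice and 7.27 in all wild-type mice. Its change of -0.26 came to 0.045 after cyclic loess. Over 18 chondrocyte markers the mean log2 signal was 5.50 in knockout 2 and 5.78 in knockout 5, compared with 5.82 to 5.86 in wild type. Of these markers 3, Sox9, Comp and Col9a3, fell past the threshold, against falls in 2.18% of all genes. After cyclic loess these 3 had changes of -0.26, -0.22 and -0.34, with limma's adjusted p of 0.116, 0.163 and 0.181. For the 12 other marker-list means below, only values as deposited are given. Over 12 skeletal muscle markers the mean was 5.44 and 5.43 in knockout, compared with 5.63 to 5.73 in wild type, with 1 fall, Pygm. Over 10 blood and marrow markers it was 5.48 and 5.43 in knockout, compared with 5.17 to 5.23 in wild type, with none past the threshold. Over 9 osteoblast markers it was 5.49 and 5.75 in knockout, against 5.73 on each wild-type array, and over 8 endothelial markers 5.23 on both knockout arrays, compared with 5.35 to 5.43 in wild type, with none past the threshold in either list. Lists for osteoclasts, fibrous layer, fat and nerve held 2 falls, Cidec and Nefl, and 1 rise, Cdh19. No marker was at 0 on any array. The part of these shifts in the Wnt results below was not tested.

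Across the list, signals in knockout cartilage were mostly lower. The mean was lower in knockout for 39 of 49 members, higher for 9 and equal for 1, Fzd4, while 51.1% of all genes tested were lower. The median change was -0.22 over the members and -0.0083 over all genes. Genes with a mean signal between 5.19 and 5.97, the interquartile range of the members, were also lower in 66.6% of 6685 cases, with a median of -0.11. Without knockout 2 the members' median was -0.032, and without knockout 5 it was -0.29. In bulk tissue, fewer cells of a type and less RNA per cell cannot be told apart.

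A single member passed the test. With limma's moderated test over all genes and a Benjamini-Hochberg adjusted p under 0.05, Fzd1 fell and the other 48 members did not pass. At an unadjusted p under 0.05 there were 8 members, all lower, which is 16.3% of the list, against 10.9% of all genes lower and 18.2% in either direction. Among genes in the members' signal range 15.4% were lower at that p, close to the members' share. The 1 fall in 49 stands beside falls in 2.18% of all genes and rises in 1.55%, a total of 3.73%, so the list held about the share of calls that the whole array did. With each array centred on its median, all genes gave 343 rises and 292 falls in place of 309 rises and 435 falls. Arrays centred and scaled gave 90 rises and 68 falls, and Fzd1 remained the only member called under both. Fits without knockout 2 or knockout 5 leave 1 knockout array. In those fits the spread came from the wild-type arrays alone, which are often identical, so their calls are not counted. Without wild type 3, 4 or 6 no member and no other gene passed in limma. At limma's unadjusted p under 0.05 these fits had 1, 1 and 2 of 49 members, against 2458, 2312 and 2434 of 19938 genes.

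Separation of the groups was more common than calls. Both knockout arrays lay below all 3 wild-type arrays in 17 members, or 34.7%, against 18.6% of all genes and 26.3% of genes in that signal range. They lay above all wild-type arrays in no member, against 13.0% of all genes and 4.95% of genes in that signal range. These 17 were Wnt3a, Wnt5b, Wnt7a, Wnt9a, Wnt10a, Wnt10b, Wnt16, Fzd1, Fzd2, Fzd8, Fzd10, Lrp5, Sfrp5, Frzb, Lef1, Axin2 and Nkd1. Each of the 17 had a two-sided exact permutation p of 0.1, the smallest that 2 against 3 arrays allow. The knockout arrays differed from each other: knockout 2 was below all wild-type arrays in 32 members, or 65.3%, against 41.4% of all genes and 55.8% of genes in that signal range. Knockout 5 was below them in 22 members, or 44.9%, against 31.2% of all genes and 39.6% of genes in that range. In 10 members they lay on opposite sides of every wild-type array, against 13.9% of all genes.

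**Figure D1:**
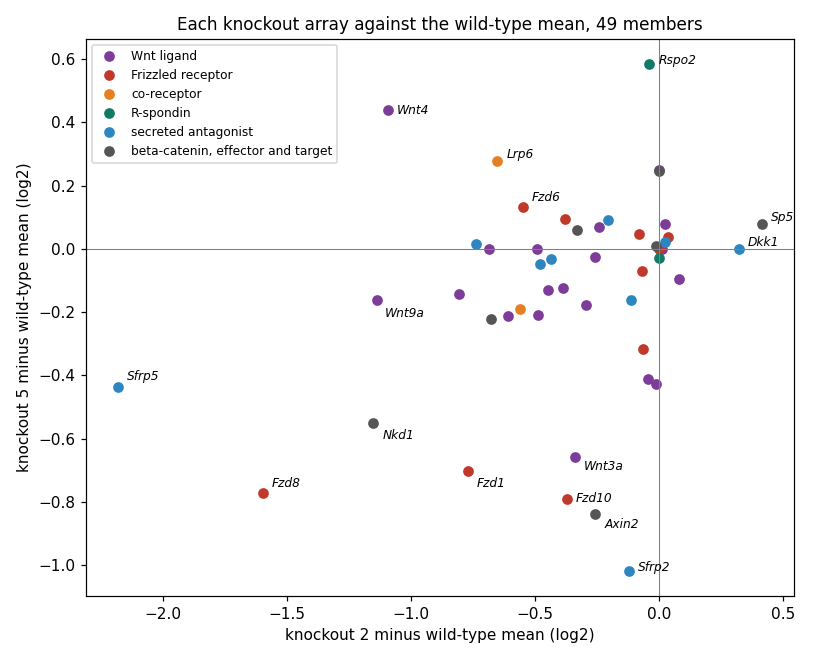
Each point is 1 of 49 genes, with its log2 signal in knockout 2 (horizontal axis) and in knockout 5 (vertical axis) minus the same wild-type mean, coloured by class. Points low and to the left are lower in both knockout mice, as for Fzd1 and Fzd8, while Wnt4 and Lrp6 were lower in knockout 2 and higher in knockout 5.

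Among the Wnt ligands 16 of 19 were lower in knockout as deposited and 12 of 19 after cyclic loess. None passed limma's test, and 3 had an unadjusted p under 0.05. Their changes ran from -0.65 for Wnt9a to 0.12 for Wnt11, with a median of -0.25. That median was -0.12 without knockout 2, -0.024 within the second array date, and -0.062 when arrays were centred and scaled. Wnt3a, a ligand that typically acts through beta-catenin, had 6.24 in knockout 2 and 5.93 in knockout 5, against 6.76, 6.49 and 6.49 in wild types 3, 4 and 6. Both knockout mice were below all wild-type mice, with a change of -0.50 (SE 0.151, limma's adjusted p = 0.223). The difference was -0.52 within the first array date and -0.57 within the second, and -0.28 after cyclic loess.

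Wnt10b, a ligand that favours bone formation in mice, had 5.81 and 5.93 in knockout, against 6.05, 6.20 and 6.05 in wild type. The groups did not overlap, but the change of -0.24 (SE 0.072, limma's adjusted p = 0.224) shrank to -0.060 after cyclic loess and to -0.022 when arrays were centred and scaled. Wnt5b, a mostly beta-catenin-independent ligand of growing cartilage, had 5.87 and 6.27 in knockout and 6.48 on each wild-type array, a change of -0.41 (SE 0.136, limma's adjusted p = 0.256). Its difference was -0.61 within the first array date and -0.21 within the second.

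Wnt4, expressed at developing joints in mice, split the knockout mice. It had 5.65 in knockout 2 and 7.19 in knockout 5, while wild type had 6.83, 6.71 and 6.71, so that its change of -0.33 (SE 0.520) describes neither mouse. It is the 1 member with a second row, which was at 5.05 and 5.75 in knockout and 6.01, 6.07 and 5.91 in wild type. In that row both knockout mice were lower, so the rows disagree about knockout 5.

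Among the other ligands, both knockout arrays were below wild type in 4, and knockout 2 alone in others. Counting every ligand, both were below in 7 of 19, or 36.8%. That share was 18.6% over all genes and 26.3% over genes in the members' signal range. Over all 19 ligands knockout 2 was lower than knockout 5 in 14. Wnt9a, which marks forming synovial joints in mice, had 5.31 in knockout 2 and 6.29 in knockout 5, compared with 6.45 on each wild-type array (-0.65, SE 0.329). Wnt5a, the main ligand of beta-catenin-independent signalling, was at 4.23 and 4.90 in knockout, against 5.33, 4.90 and 4.90 in wild type (-0.48). Wnt3 was at 4.59 in knockout 2, and at 5.27 on the other 4 arrays. Wnt1 was at 4.43 in knockout 2, and at 4.92 on the other 4 arrays.

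Wnt10a (-0.35), Wnt7a (-0.26) and Wnt16 (-0.14), a ligand made in bone and in injured joints, were lower in both knockout mice, but Wnt16 had 0.015 after cyclic loess. Wnt6 (-0.22, and 0.046 after cyclic loess) and Wnt7b (-0.23) were lower in knockout 5 only. Wnt8a had -0.29 and Wnt2b -0.086 (0.051 after cyclic loess). As deposited, Wnt2 (-0.0063), Wnt8b (0.0051) and Wnt9b (0.050) had group means within 0.1 of each other. After cyclic loess their changes were 0.14, 0.084 and 0.27. Wnt11 was at 5.59 in knockout 2 and on every wild-type array, and at 5.83 in knockout 5. Its change of 0.12 came to 0.26 after cyclic loess.

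The Frizzled receptors held the only call. Fzd1, a receptor for several Wnt ligands, had 5.20 in knockout 2 and 5.27 in knockout 5, against 6.04, 5.96 and 5.91 in wild types 3, 4 and 6. The knockout mice lay within 0.068 of each other and well below every wild-type mouse. Fzd1 averaged 5.23 ± 0.048 (SD, n = 2) in knockout and 5.97 ± 0.067 (SD, n = 3) in wild type. This gave a change of -0.74 (SE 0.053, limma's adjusted p = 0.0236), a knockout signal of 0.600 times the wild-type signal on the linear scale. Unlike most members, its 5 values all differ. The difference was -0.84 within the first array date and -0.67 within the second.

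The size of the Fzd1 change held better than its call. It stayed between -0.60 and -0.77 in every fit tried. The adjusted p in limma was 0.0340 with arrays centred, and 0.0498, just under the threshold, with arrays centred and scaled. It was 0.0525 after quantile normalisation, 0.0538 after cyclic loess and 0.0684 with the array date as a block. It was 0.116, 0.163 and 0.179 without wild type 3, 4 or 6. Without knockout 2 or knockout 5 the change was -0.70 and -0.77.

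Fzd8 and Fzd10 were also lower in both knockout mice without passing the test. Fzd8 had 4.07 and 4.90 in knockout, against 5.90, 5.70 and 5.40 in wild type, a change of -1.18 (SE 0.328, limma's adjusted p = 0.189). It had the widest wild-type spread of the Frizzled genes, an SD of 0.253, and the lowest fitted change of the receptors. Tested only among the 2535 genes with 5 different values, its adjusted p in limma was 0.0397. In that setting 601 of the 2535 genes passed. Fzd10 had 5.92 and 5.51 in knockout, against 6.25, 6.35 and 6.29 in wild type (-0.58, SE 0.146, limma's adjusted p = 0.159). Its difference was -0.32 within the first array date and -0.81 within the second, the reverse order of Fzd8, which had -1.83 and -0.65.

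The remaining Frizzled genes showed smaller or split differences. Fzd6, a receptor of planar polarity signalling, was at 5.14 in knockout 2 and 5.82 in knockout 5, on either side of wild type at 5.66, 5.70 and 5.70. Fzd5 and Fzd7 had the same pattern, with 6.18 and 6.65 against 6.56 on each wild-type array for Fzd5, and 5.08 and 5.21 against 5.16 for Fzd7. Their changes were -0.14 and -0.018 as deposited, and 0.089 and 0.051 after cyclic loess. Fzd2, close to Fzd1 and Fzd7 in sequence, was at 5.59 and 5.33 in knockout and 5.62 to 5.70 in wild type (-0.19). Fzd3 (-0.068), Fzd4 (0) and Fzd9 (0.036) had knockout values that also occurred in wild type, and Fzd4, the receptor of Norrin as well as Wnts, was at 5.11 on all 5 arrays.

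The co-receptors differed in how the knockout mice lay. Lrp5, whose loss lowers bone mass, had 5.55 and 5.92 in knockout and 6.11 on each wild-type array (-0.37, SE 0.127, limma's adjusted p = 0.263). Both knockout mice were lower, with -0.56 within the first array date and -0.19 within the second. Lrp6 had 4.86 in knockout 2 and 5.79 in knockout 5, compared with 5.55, 5.49 and 5.49 in wild type. Its change of -0.19 (SE 0.315) joins a lower and a higher mouse. Over the 12 Frizzled and Lrp receptors, both knockout arrays lay below every wild-type array in 5, or 41.7%. That share was 18.6% over all genes and 26.3% over genes in the members' signal range. In none did both lie above, against 13.0% and 4.95%.

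**Figure D2:**
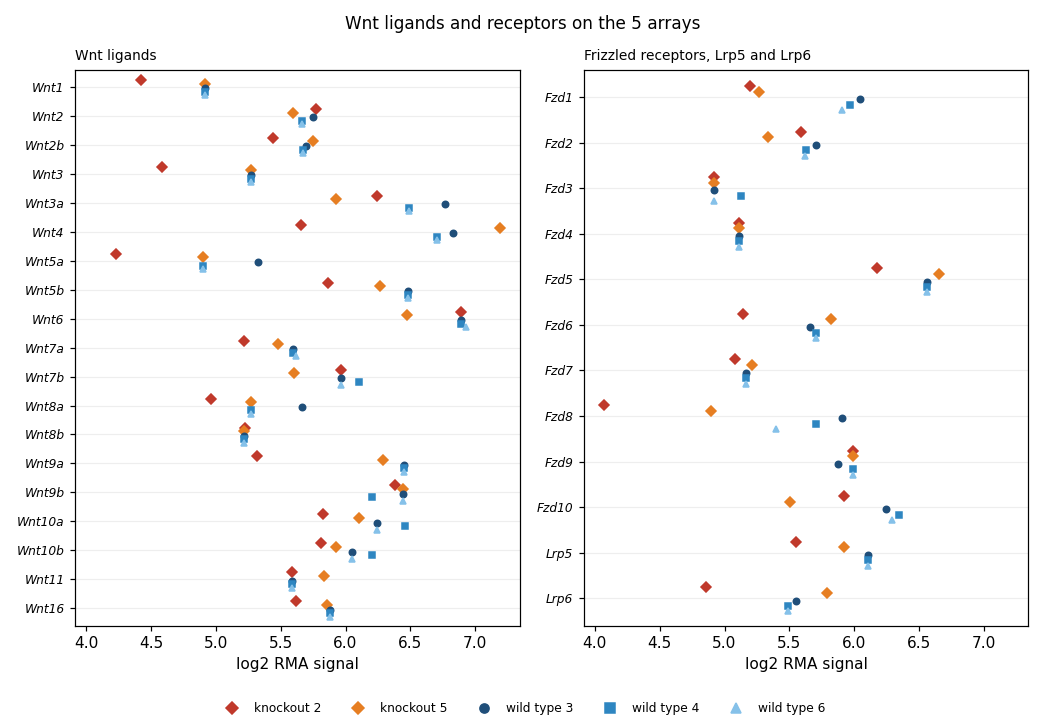
Log2 RMA signal of each ligand (left) and receptor (right) on the 5 arrays, with knockout as diamonds and wild type as circles, squares and triangles. For Fzd1 the knockout arrays sit together at 5.20 and 5.27, below wild type at 5.91 to 6.04, whereas for Wnt4 and Lrp6 they lie on either side of wild type.

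R-spondins raise the number of Frizzled receptors at the cell surface by binding Lgr receptors and removing the ligases Znrf3 and Rnf43. Rspo2 had 5.13 in knockout 2 and 5.76 in knockout 5, compared with 5.25, 5.13 and 5.13 in wild type (0.27, SE 0.216, limma's adjusted p = 0.431). Only knockout 5 stood above wild type. Rspo3 was at 5.16 in knockout 2 and in all wild-type mice and at 5.13 in knockout 5, and its change of -0.014 took the other sign with every scaling of the arrays tried.

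Of the 9 secreted antagonists 7 were lower in knockout, also after cyclic loess. None passed limma's test, and 0 had an unadjusted p under 0.05. Sfrp5, a decoy that binds Wnt ligands, had 3.53 in knockout 2 and 5.28 in knockout 5, against 5.69, 5.75 and 5.69 in wild type. Both knockout mice were lower, but its change of -1.31 (SE 0.590, limma's adjusted p = 0.399) came to -2.16 within the first array date and -0.45 within the second. Frzb, a secreted Frizzled-like protein of articular cartilage whose loss sensitises mice to arthritis, had 4.75 and 4.70 in knockout, against 4.96, 4.82 and 4.82 in wild type. The knockout mice were close to each other and below all wild-type mice, with a small change of -0.14 (SE 0.061, limma's adjusted p = 0.398).

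Wif1, a Wnt-binding inhibitor made in cartilage, had 4.56 in knockout 2 and 5.32 in knockout 5, while all wild-type mice had 5.30 (-0.36, SE 0.255). Dkk3, a relative of the Lrp antagonists, was at 5.09 and 5.52 in knockout, against 5.66, 5.52 and 5.52 in wild type (-0.26, SE 0.157). In both genes the difference lay mostly in knockout 2. Dkk2 showed the same, with 4.73 in knockout 2 and 5.14 in knockout 5, compared with 5.14 to 5.23 in wild type.

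Sfrp2 was the reverse case, with 4.69 in knockout 5 and 5.59 in knockout 2, while wild type had 5.57, 5.57 and 5.98 (-0.57). Dkk1, which blocks Lrp5 and Lrp6, was at 6.02 in knockout 2 and at 5.70 in knockout 5 and every wild-type mouse. Its change was 0.16, and 0.31 after cyclic loess. Sfrp1 had -0.057 and Sfrp4 had 0.023. Sfrp5 and Frzb were the only antagonists with both knockout arrays below every wild-type array. These 2 of 9 are 22.2%, between the 18.6% of all genes and the 26.3% of genes in the members' signal range. None had both above, against 13.0% and 4.95%.

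The last class holds beta-catenin, which carries the signal to the nucleus, its partner Lef1 and genes that the signal induces. Ctnnb1, the gene of beta-catenin, was at 5.29 and 5.31 in knockout and 5.31, 5.28 and 5.31 in wild type, a change of -0.0016 (SE 0.021, limma's adjusted p = 1.00). Its protein is controlled by degradation, which these arrays do not measure. Nkd1, Lef1 and Axin2 were lower in both knockout mice than on every wild-type array, and these 3 of 7 are 42.9%. That share was 18.6% over all genes and 26.3% over genes in the members' signal range. None of the 7 had both knockout arrays above, against 13.0% and 4.95%. None passed limma's test, with Nkd1 the 1 gene at an unadjusted p under 0.05.

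Nkd1, an inhibitor that binds Dishevelled and is itself induced by Wnt signals, had 5.87 and 6.47 in knockout, against 7.19, 6.94 and 6.94 in wild type. Its fitted change was -0.85 (SE 0.226, limma's adjusted p = 0.177). It came to -1.32 within the first array date and -0.47 within the second. Axin2, a feedback scaffold of the destruction complex and a common reporter of Wnt activity, had 5.39 and 4.81 in knockout, against 5.69, 5.64 and 5.61 in wild type (-0.55, SE 0.199, limma's adjusted p = 0.296). Here knockout 5 was the lower mouse. Lef1, the factor that carries beta-catenin to DNA, had 5.11 and 5.57 in knockout, against 5.78, 5.81 and 5.78 in wild type (-0.45, SE 0.156, limma's adjusted p = 0.274).

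Sp5 and Notum did not share this direction, and the knockout mice were split for Nkd2. Sp5, a repressor that is a direct Wnt target, had 6.56 in knockout 2 and 6.22 in knockout 5. Wild type had 6.22, 6.22 and 5.99, which gave a change of 0.25 (0.45 after cyclic loess). Notum, an enzyme that strips the lipid from Wnt ligands, was at 5.76 in knockout 2 and on every wild-type array. In knockout 5 it was at 6.01, for a change of 0.12 (0.28 after cyclic loess). Nkd2 was at 5.21 and 5.60 in knockout, on either side of 5.54 on each wild-type array (-0.14).

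**Figure D3:**
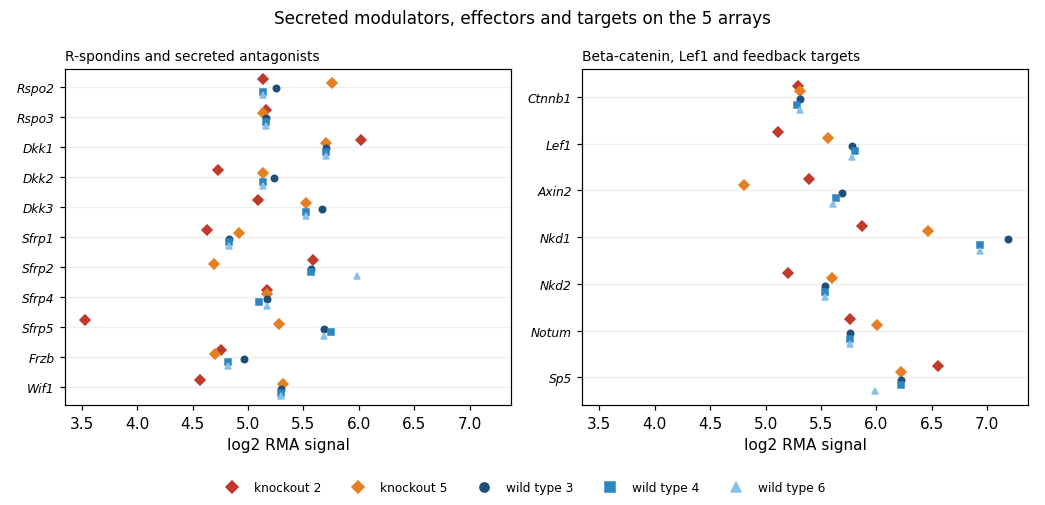
Log2 RMA signal of R-spondins and antagonists (left) and of beta-catenin, Lef1 and feedback targets (right) on the 5 arrays. Nkd1, Lef1 and Axin2 have both knockout diamonds left of all wild-type symbols, while Sp5 and Notum do not.

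Promoter sequence is shown for the single gene called and for 2 feedback targets, Axin2 and Sp5. Their changes had opposite signs, and neither passed the test. The sequences are the 250 bases before the gene start, from RefSeq on GRCm38.p6, given 5′ to 3′ on the gene's strand. Fzd1 lies on the minus strand at chr5:4758217-4758466, Axin2 on the plus strand at chr11:108920099-108920348 and Sp5 on the plus strand at chr2:70474673-70474922. Capitals mark the core letters bound by Tcf and Lef factors, searched on both strands. The letters were CTTTGAA as the first word, then CTTTGAT as another, with CTTTGTA as the third word, and CTTTGTT as the last.
Fzd1: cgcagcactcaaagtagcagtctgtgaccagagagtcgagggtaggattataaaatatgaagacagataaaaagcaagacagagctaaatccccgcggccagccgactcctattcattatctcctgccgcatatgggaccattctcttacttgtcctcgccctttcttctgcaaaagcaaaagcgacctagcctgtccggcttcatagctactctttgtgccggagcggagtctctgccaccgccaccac
Axin2: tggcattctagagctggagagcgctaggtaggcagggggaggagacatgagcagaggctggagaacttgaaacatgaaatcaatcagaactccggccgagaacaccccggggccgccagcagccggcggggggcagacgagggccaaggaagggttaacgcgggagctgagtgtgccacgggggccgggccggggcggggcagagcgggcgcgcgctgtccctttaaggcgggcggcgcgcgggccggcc
Sp5: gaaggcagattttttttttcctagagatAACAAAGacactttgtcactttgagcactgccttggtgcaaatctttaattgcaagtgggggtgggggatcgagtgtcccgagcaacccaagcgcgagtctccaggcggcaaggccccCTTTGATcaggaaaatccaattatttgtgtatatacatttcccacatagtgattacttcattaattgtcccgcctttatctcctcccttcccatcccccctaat
Sp5 held 2 matches, which begin 222 and 104 bases before the start, and Fzd1 and Axin2 held none in these windows. Of the 33 members with a window in the table, 6 held a match, namely Dkk1, Fzd7, Lef1, Sp5, Wnt11 and Wnt5b. By windows this was 15.0% of 40, against 14.8% of 32851 windows of all genes. None of the 6 members passed the test. As deposited, Fzd7, Lef1 and Wnt5b had lower means in knockout, and Dkk1, Sp5 and Wnt11 had higher means. A match is a description of letters and not a binding site.

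The wider pathway was followed in 72 further measured genes, of which 1 rose, 1 fell and 70 did not pass, shares near those over all genes. Their median change was -0.091, and 54 of 72 were lower as deposited but 39 of 72 after cyclic loess. Lgr5, an R-spondin receptor and stem cell marker that is also a Wnt target, rose. It had 5.59 and 5.70 in knockout, against 5.28, 5.30 and 5.30 in wild type, so both knockout mice were above all wild-type mice. This gave a change of 0.36 (SE 0.041, limma's adjusted p = 0.0443). After cyclic loess it was 0.47 (limma's adjusted p = 0.0538), with the array date as a block the adjusted p in limma was 0.0716, and without wild type 3, 4 or 6 it was 0.205, 0.237 and 0.245.

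Axin1, the scaffold around which the destruction complex forms, was called lower on values that hardly vary. It was at 5.90 in both knockout mice, with a difference of 0.00026 between them, and at 6.12 on each wild-type array. Its fitted change was -0.22 (SE 0.015, limma's adjusted p = 0.0229), and it shrank to -0.044 after cyclic loess (limma's adjusted p = 0.720) and to -0.00071 when arrays were centred and scaled (limma's adjusted p = 0.996). Leaving out wild type 3, 4 or 6 gave 0.128, 0.176 and 0.204. Kremen1, a receptor for Dkk1, was at 5.21 in both knockout mice and 5.31 on each wild-type array, and its change of -0.099 (SE 0.015, limma's adjusted p = 0.0707) came to -0.0014 when arrays were centred and scaled. Kremen1 passed with the other variance model, at limma's adjusted p = 0.036.

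By role and as deposited, the 10 further receptors and co-receptors were lower in 9 cases with no call, and the 14 genes of the destruction complex and Dishevelled were lower in 11, with Axin1 the 1 call. Of 7 R-spondin receptors, ligases and R-spondins 6 were lower, and Lgr5 was the exception. Partners of beta-catenin in the nucleus had 9 of 12 lower, planar polarity genes 9 of 11 and common targets 7 of 10, with no call in any of these groups. Of all genes tested 51.1% were lower, and of genes in the members' signal range 66.6%. After cyclic loess the counts for these 3 groups were 5 of 12, 6 of 11 and 3 of 10, and the median of the common targets was 0.064. The receptors and co-receptors then had 8 of 10 lower, and the destruction complex and Dishevelled 8 of 14. The further secreted antagonists had 2 of 6 lower, and the secretion genes Porcn and Wls had 1 of 2.

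**Figure D4:**
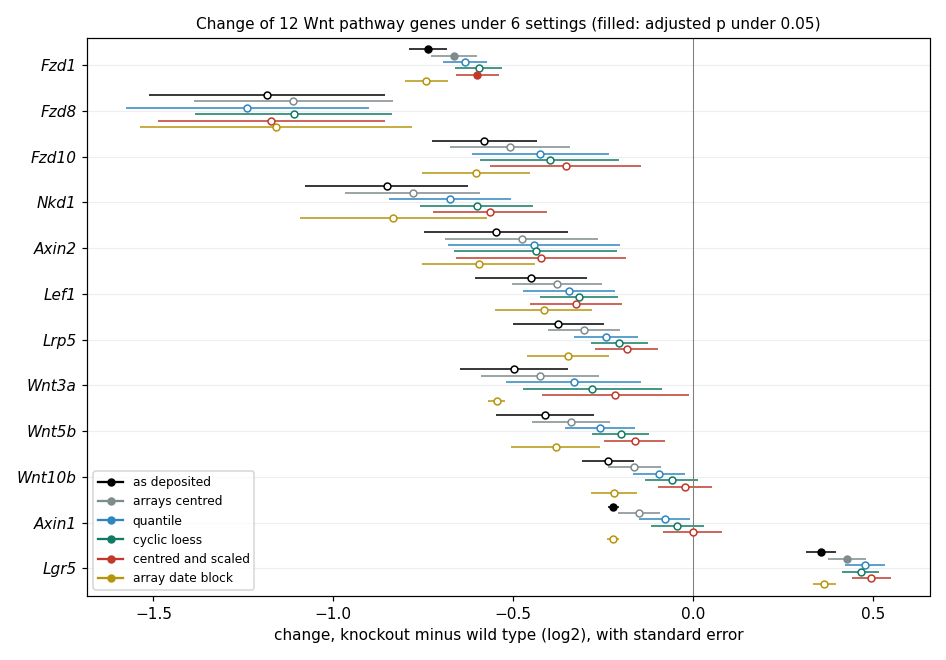
Change in log2 signal, knockout minus wild type, with its standard error, for 12 pathway genes under 6 settings, filled where limma's adjusted p was under 0.05. Fzd1 lies between -0.74 and -0.60 in these settings and is filled in 3 of them, while Axin1 runs from -0.22 as deposited to -0.00071 with arrays centred and scaled, and Lgr5 stays above 0.

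The lower signals over the list shrank with scaling. With each array centred on its median, 33 members were lower and 16 higher, and their median was -0.15, while that of all genes was 0.064. With cyclic loess, quantile normalisation, or arrays centred and scaled, 31 of the 49 members were lower and 18 higher, and the median change was -0.076, -0.097 and -0.062. Over all genes the medians were then 0.013, 0.0097 and 0.041. Under cyclic loess the class medians were -0.083 for ligands, -0.049 for Frizzled receptors, -0.14 for the co-receptors, 0.21 for R-spondins, -0.15 for antagonists and -0.017 for the beta-catenin class. Within the first array date the median over all members was -0.30, and within the second it was 0.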

How the data were processed

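Total RNA from mandibular condyle cartilage was hybridised to 5 arrays, 2 from Ddr1 knockout and 3 from wild-type mice. The deposited log2 values were made by the authors with Affymetrix Expression Console and RMA, per the submitters' processing notes. The sources used here do not give their versions, and the genome build is not stated in them. Values ran from 0.413 to 13.5.

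Of 35556 rows, 21789 had 1 gene symbol in the platform annotation, 1621 had several and 12146 had none. Rows with 1 symbol were kept, and where a gene had several rows (999 genes) the row of highest mean was taken, which left 19938 genes. Group differences were fitted with limma 3.58.1 in R 4.3.3 (lmFit, eBayes, two-sided, Benjamini-Hochberg over these genes, threshold 0.05). Background correction and detection could not be varied, since the values were already summarised.

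The members and lists were chosen with earlier results of these data known, so no list was tested. Values on every array are given for members past the threshold, the 3 of lowest p in each class, and members whose knockout arrays lay on opposite sides of wild type with a gap of at least 0.5, besides other pathway genes past the threshold or among the 3 of lowest p. Other values were chosen after they were seen. Nothing beyond the label of a mouse for each array describes the replicates, and only 5 arrays limit the precision. Alternatives were 4 scalings, the array date as a block, a filter on dim genes, averaged rows, all rows, another variance model, array weights, genes without identical values, and each array left out in turn.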

Additional observations from a re-analysis of the deposited data

How the results depend on the processing

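Over all genes 744 passed. Quantile normalisation, cyclic loess, the array date as a block and array weights each left 0 in limma. At an unadjusted p under 0.05 these settings had 3761, 3919, 3829 and 1917 genes. Arrays centred and scaled left 158, and genes above the median signal 446 of 9969. Leaving out 1 array gave 0 to 9999. Among the members the count of 1 became 0 under the same 4 settings, with 6, 6, 7 and 7 members at an unadjusted p under 0.05, and 2 (Fzd1 and Fzd8) among genes with 5 different values, where only 5 members remained. It was 0 to 27 with 1 array left out. The upper ends of both leave-out ranges, for all genes and for members, come from a fit with 1 knockout array. Its spread came from the wild-type arrays alone, so those calls are not counted as results. Without wild type 3, 4 or 6 both counts were 0. The fit with array weights gave Fzd1 a standard error of 1.46, against 0.053 in the main fit, and limma's adjusted p of 1.00. The members' median of -0.22 was 0 within the second array date and -0.29 to -0.032 with 1 array left out. Rspo3 changed sign in all 4 scalings, to 0.059 (centred), 0.062 (quantile), 0.054 (cyclic loess) and 0.068 (centred and scaled). Leaving out 1 array gave a range of -1.09 to 0.44 for Wnt4, -0.65 to 0.28 for Lrp6, -0.55 to 0.13 for Fzd6 and -0.74 to 0.016 for Wif1, with the sign turned by leaving out knockout 2, and of -0.040 to 0.58 for Rspo2, turned by leaving out knockout 5. The cause was not tested. No paired analysis was possible because the groups share no replicate number, and the array date, which both groups share, was fitted as a block instead. Probe-level signal over background was not used here.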

Other observations

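Identical values were shared between genes as well as between arrays. The table holds 177780 values but 91606 distinct ones, and 38.9% of values also occur in another row of the same array. Of the 245 member values, 111 (45.3%) did so. Wnt3 and Wnt8a had the same value on 3 arrays, as did Wnt1 and Fzd3. The most frequent value, 4.74144, occurs 1509 times.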
